A study of Homo sapiens
Mus musculus with 17 samples.

Results

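The data are bulk RNA sequencing of 17 xenograft tumours grown from VM-CUB-1, an established cell line of human urinary bladder carcinoma. The hosts were Hsd:Athymic Nude-Foxn1nu mice, which lack a working thymus. Each tumour gave 1 library, and human and mouse reads were tabulated separately, which parts the RNA of tumour cells (human) from that of host cells such as vessel, stromal and immune cells (mouse). Every mouse was treated for 7 days. Nintedanib-exposed tumours were 9: 4 received nintedanib at 40 mg/kg with alpelisib at 25 mg/kg (the combination), and 5 received nintedanib at 40 mg/kg alone, with 3 titled as responders and 2 as non-responders. These titles were followed, although the description of the series swaps both numbers. Tumours without nintedanib were 8: 4 received alpelisib at 25 mg/kg and 4 received vehicle, methylcellulose (0.5%) and Tween80 (0.1%). The comparison is the main effect of nintedanib, 9 of 17 tumours against the other 8, with alpelisib exposure as a second factor, for the 14533 of 23368 human genes and the 11831 of 23337 mouse genes that averaged 10 or more normalized counts.

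Nintedanib is a small-molecule inhibitor of the tyrosine kinase receptors for VEGF, FGF and PDGF. VEGF receptors sit on endothelial cells, where VEGF signalling drives sprouting: tip cells at the front of a sprout switch on genes such as Apln, Esm1, Dll4 and Angpt2. PDGF receptor beta marks pericytes, the cells that wrap capillaries, and PDGF receptor alpha marks fibroblasts. Alpelisib inhibits the alpha isoform of PI3K. The study's stated interest is in resistance of these tumours to nintedanib and in what adding the PI3K inhibitor does.

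Each library held 7429753 to 25654879 recovered human reads, with a median of 20312801. Recovered mouse reads were fewer, 2271764 to 7438823, with 5084126 at the median. In 4 libraries over 40% of mouse reads lay on Rn45s, the ribosomal RNA precursor, and Lars2, which collects ribosomal RNA reads: vehicle 3 (72.9%), combination 4 (60.1%), alpelisib 3 (44.1%) and combination 1 (42.1%). Alpelisib 1 also stood apart, with the lowest value of the 8 unexposed tumours for many vessel genes below. Markers were checked against the labels: all 30 listed host endothelial genes and all 19 listed basal urothelial genes in human reads passed the expression filter, and 15 of 18 luminal urothelial genes did, while 8 of 12 host T cell genes did. Whether each tumour had its own mouse is not stated in the labels, and the p-values therefore describe the spread among these 17 libraries, which may be technical.

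Host vessel genes were the clearest change with nintedanib. In mouse reads 101 genes passed an adjusted p of 0.05 (limma, Benjamini-Hochberg over all tested mouse genes), 0.854% of those tested. Of these, 80 were lower in exposed tumours (0.676%) and 21 were higher (0.177%). At an unadjusted p under 0.05 there were 1131 (9.56%), 627 higher (5.3%) and 504 lower (4.26%). The 80 lower genes had a median log2 change of -1.19, from -2.44 to -0.61, and the 21 higher genes a median of 0.94, from 0.69 to 1.71, while the median over all tested mouse genes was 0.001. Of the 80 lower genes, 21 belonged to the lists of pan-endothelial and of tip cell and VEGF-response genes. None of the 21 higher genes did. These lists together held 61 of the 11831 tested mouse genes. They were chosen with earlier results of these data known, so the overlap is no separate result. In bulk RNA, fewer endothelial cells and less RNA per endothelial cell cannot be told apart. Of the 80 lower genes 72 had a human gene of the same name, and 31 of these had more human than mouse reads. Of the 21 higher genes 18 had one, 11 of them with more human reads. More human reads were also seen in 13 of 31 tip cell genes and 3 of 30 pan-endothelial genes. How much of the mouse values came from human reads was not tested.

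The number of calls depended on single libraries. It was 61 without combination 4, 62 without responder 1, 54 without alpelisib 2, 67 without vehicle 1 and 63 without vehicle 4. It was 36 without the 3 responders, and 12, all lower, without the 4 libraries rich in Rn45s and Lars2. In each of those last 2 fits all 101 genes kept their sign and an unadjusted p under 0.05. The fit that chose these genes used the same libraries, so this is no separate result. Of the called genes described below, Flt4, Apln, Apold1, Trp53i11, Clca5, Spry4 and Kif20a kept their calls in every alternative in which they were tested, and each of the others lost its call in at least 1, the fit without those 4 libraries among them.

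Among the receptors that nintedanib inhibits, 2 of the 3 host VEGF receptors passed the test and the PDGF and FGF receptors did not. Flt4, the VEGF-C receptor VEGFR3, had 30.7, 34.2, 51.7 and 24.9 normalized counts in the 4 combination tumours, against 149.4, 85.7, 75.5 and 63.1 in the 4 alpelisib tumours. It had 25.1, 45.9 and 35.1 in responders and 33.4 and 20.6 in non-responders, against 130.9, 76.2, 271 and 121.7 in vehicle tumours. All 9 exposed tumours lay below all 8 unexposed ones, as for 0.169% of tested mouse genes in that direction. The log2 change of Flt4 was -1.74 ± 0.25 (SE, limma adjusted p = 0.00135).

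Flt1, VEGFR1, averaged 87.5 ± 38.0 in combination tumours and 191.9 ± 42.7 in alpelisib tumours (SD, n = 4 each). It averaged 91.3 ± 25.5 in nintedanib tumours (n = 5) and 247.2 ± 171.7 in vehicle tumours (n = 4). Its change was -1.23 ± 0.24 (limma adjusted p = 0.0134). The groups did not overlap on either side of the design, with vehicle 3 far above the rest at 502.9. The call of mouse Flt1 was lost without the 3 responders (limma adjusted p = 0.0699), without the 2 non-responders (0.0551) and without the 4 libraries rich in Rn45s and Lars2 (0.122).

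Kdr, VEGFR2, the main signalling receptor for VEGF-A, ran from 56.1 to 242.1 with a median of 116.9 in exposed tumours, against 129.7 to 581 with a median of 232.6 in unexposed tumours. Its change of -1.03 ± 0.28 did not pass (limma adjusted p = 0.103), and the groups overlapped: responders 2 and 3, at 242.1 and 226.2, lay above all 4 alpelisib tumours. The remaining receptors had changes that did not pass: Pdgfra 0.50 ± 0.28, Pdgfrb 0.12 ± 0.23, Fgfr1 0.32 ± 0.19, Fgfr2 -0.30 ± 0.29 and Fgfr3 -0.50 ± 0.36, with limma adjusted p-values from 0.618 to 0.911. The sign of Pdgfrb turned without the 3 responders (-0.16). Over the 12 tested genes of the target list, 2 were called lower, where 0.676% of all mouse genes were. The list's median change was -0.035. It ran from -0.188 without the 4 libraries rich in Rn45s and Lars2 to 0.011 with their share as a covariate.

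**Figure D1:**
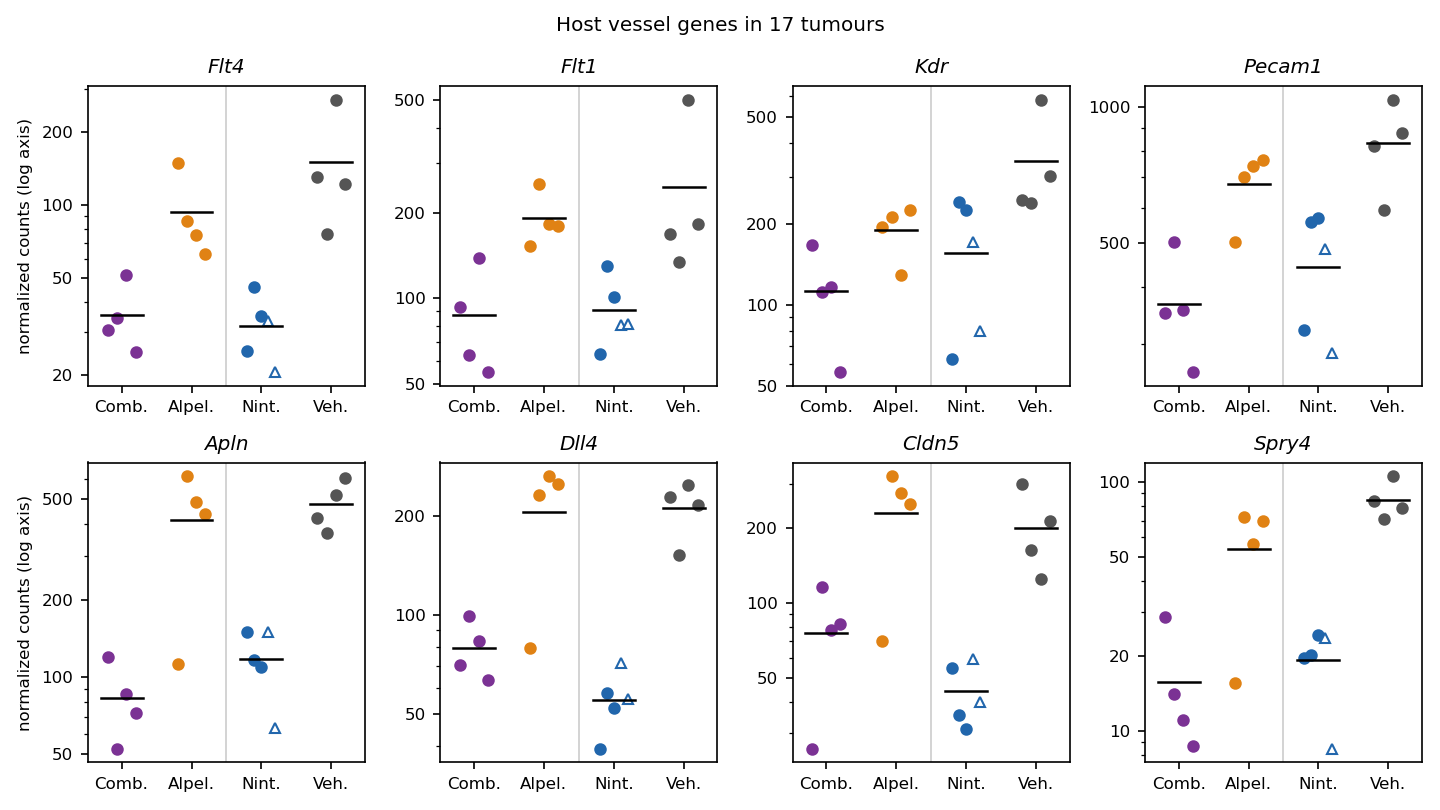
Normalized counts (log axis) of 8 host vessel genes in each tumour; columns are combination, alpelisib, nintedanib and vehicle, the grey line parts tumours with alpelisib from those without it, black bars are means, and open triangles are the non-responders. For Flt4 the 9 exposed tumours lie between 20.6 and 51.7, below all 8 unexposed ones, while for Apln, Dll4, Cldn5 and Spry4 the tumour alpelisib 1 lies near the exposed ones.

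Among genes that VEGF and the tip cell program switch on, large decreases were frequent. Of 31 tested members 27 had a negative change, with a median of -0.74. None was called higher and 13 were called lower, where 0.676% of all mouse genes were. At an unadjusted p under 0.05, 20 were lower and 3 higher, against 4.26% and 5.3% of all mouse genes. The list was chosen with earlier results of these data known, so its counts are no separate result. Apln, the apelin ligand made by tip cells, had 119.8, 52.3, 86.1 and 72.3 normalized counts in combination tumours, against 112.1, 615.5, 487 and 438.6 in alpelisib tumours. It had 149.7, 117, 109.2, 150.9 and 62.9 in nintedanib tumours, against 423.1, 369.5, 519 and 606 in vehicle tumours. Every tumour without nintedanib but alpelisib 1, the one at 112.1, lay above every exposed one. The log2 change was -2.09 ± 0.28 (limma adjusted p = 0.000557), and the call held in all 31 alternative fits.

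Dll4, the Notch ligand of tip cells, showed the same layout. It ran from 39.3 to 99.6 (median 63.6) in exposed tumours, against 79.4 to 264.2 (median 230.2) in unexposed ones, where the lowest was again alpelisib 1. Its change was -1.60 ± 0.22 (limma adjusted p = 0.00088). Angpt2, the TIE2 ligand that loosens vessels, ran from 59.3 to 123.3 in exposed tumours, against 121.3 to 416.1 in unexposed tumours, and changed by -1.50 ± 0.23 (limma adjusted p = 0.00246).

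Apold1, an endothelial immediate early gene, averaged 19.3 ± 6.38 in combination tumours and 60.8 ± 22.4 in alpelisib tumours. It averaged 20.4 ± 7.41 in nintedanib tumours and 114.6 ± 28.6 in vehicle tumours, for a change of -2.05 ± 0.26 (limma adjusted p = 0.000477). Only 1 unexposed tumour, alpelisib 1 at 28.0, lay below an exposed one.

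Esm1, endocan, a proteoglycan secreted by tip cells, had a change as large (-2.10 ± 0.48) with much more spread. It ran from 15.7 to 81.8 (median 35.7) in exposed tumours, against 17.1 to 400.9 (median 261.9) in unexposed tumours, with alpelisib 1 at the low end. Its call (limma adjusted p = 0.039) was lost in 20 of 31 alternatives, 14 of them the omission of a single library, and kept without combination 1, combination 2 or alpelisib 1. Across the 31 its adjusted p reached 0.237, without the 4 libraries rich in Rn45s and Lars2.

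The other leading members were Kcne3, a potassium channel subunit (-2.35 ± 0.37, limma adjusted p = 0.00246), Nes, the intermediate filament nestin found in newly forming vessels (-1.91 ± 0.31, 0.00259), and Trp53i11, named for its induction by p53 (-1.85 ± 0.21, 0.000399). In Nes all exposed tumours, at 24.2 to 136.8, lay below all unexposed ones, at 153.7 to 599.4. For Trp53i11 the same held, at 83.5 to 174.7 in exposed and 179 to 631.3 in unexposed tumours.

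Pan-endothelial genes, which mark endothelial cells whatever their state, were all on the negative side. All 30 tested members had a negative change, with a median of -0.80, where 50.2% of all tested mouse genes had a positive change. Of the 30, 8 were called lower, against 0.676% of all tested mouse genes. This list too was chosen with earlier results of these data known, so its counts are no separate result. Pecam1, the adhesion molecule CD31, had 351.2, 503.9, 356.7 and 259.3 normalized counts in combination tumours, against 504.2, 702.9, 741.8 and 763.1 in alpelisib tumours. It had 322.4, 558.8, 567.7, 486.2 and 285.4 in nintedanib tumours, against 820.1, 593, 1040 and 877.7 in vehicle tumours. Within each side of the design the groups did not overlap, and the change was -0.92 ± 0.18 (limma adjusted p = 0.0121).

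Other pan-endothelial genes that passed were Cldn5, Cdh5, Mmrn2 and Tie1. Cldn5, the tight junction protein claudin-5, ran from 26.0 to 115.7 (median 54.9) in exposed tumours, against 70.0 to 321.7 (median 230.5) in unexposed tumours, a change of -1.86 ± 0.31 (limma adjusted p = 0.00432). The Cldn5 call was lost without the 3 responders. Cdh5, VE-cadherin of endothelial adherens junctions, changed by -1.33 ± 0.24 (limma adjusted p = 0.00862). Mmrn2, an endothelial matrix protein, changed by -1.34 ± 0.21 (0.00246) and Tie1, an orphan receptor of the angiopoietin system, by -1.12 ± 0.20 (0.00675). Without the 4 libraries rich in Rn45s and Lars2 none of the 30 pan-endothelial genes passed (5 did without the 3 responders), all 30 stayed negative, and the median was -0.59. In the same fit 3 of the 31 tip cell genes passed, with a median of -0.65.

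Set against Pecam1 in the same tumour, some vessel genes of different lists still had lower medians in exposed tumours, with overlapping ranges. Apln was 24.1% of Pecam1 at the median of the exposed tumours (10.4% to 46.4%), against 59.9% in unexposed tumours (22.2% to 87.6%). Nes was 17.6% (8.47% to 27.9%) in exposed and 31.0% (24.4% to 57.6%) in unexposed tumours. The receptor gene Flt4 was 7.77% (6.18% to 14.5%) in exposed and 13.4% (8.27% to 29.6%) in unexposed tumours. The pan-endothelial Cdh5 was 49.5% (42% to 71.4%) and 66% (56.1% to 113%) in the same order. Dll4, Esm1, Angpt2 and Kcne3 also had lower medians in exposed tumours. The called receptor gene Flt1 differed less, at 21.2% (12.6% to 39%) in exposed and 24.1% (20.5% to 48.3%) in unexposed tumours. Kdr stood at 32.8% (19.5% to 47.6%) and 32.2% (17.5% to 55.8%) of Pecam1 in the same order, close together at the median. These ratios are descriptions, with no test. Pecam1 was added after its values were seen, and its change of -0.92 was smaller than those of Apln, Nes, Flt4 and Cdh5. The lower ratios of these genes largely follow from that and are no separate result.

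Outside those 2 lists, and among called genes averaging at least 50 normalized counts in exposed or unexposed tumours, large decreases were seen in Clca5, Mest, Spry4, Pcdh12 and Kcnj2. Clca5, of the calcium-activated chloride channel regulator family, had 9.29, 11.1, 13.5 and 7.48 normalized counts in combination tumours, against 46.7, 35.8, 35.4 and 35.6 in alpelisib tumours. In nintedanib tumours it had 8.81, 6.31, 8.58, 6.19 and 4.84, against 37.2, 29.2, 163 and 80.7 in vehicle tumours. No exposed tumour reached an unexposed one, and the change of -2.44 ± 0.31 was the largest decrease among the named genes (limma adjusted p = 0.000477). Mest, an imprinted gene, changed by -1.93 ± 0.36 (limma adjusted p = 0.00895), Pcdh12, a protocadherin of endothelial cells, by -1.81 ± 0.27 (0.00194), and Kcnj2, an inward rectifier potassium channel, by -1.77 ± 0.35 (0.0162). The call of mouse Kcnj2 was lost without the 3 responders (limma adjusted p = 0.163), without the 2 non-responders (0.0602) and without the 4 libraries rich in Rn45s and Lars2 (0.128). The call of mouse Mest was lost without the responders (0.0968) and without those 4 libraries (0.144), and that of mouse Pcdh12 without those 4 libraries (0.0873).

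Feedback inhibitors of receptor kinases are switched on by the signal they damp, through the ERK pathway. Spry4, a Sprouty protein, had 28.8, 14.1, 11.1 and 8.73 normalized counts in combination tumours, against 15.6, 72.6, 56.6 and 69.6 in alpelisib tumours. It had 19.6, 20.1, 24.2, 23.5 and 8.47 in nintedanib tumours, against 84.1, 71.1, 105.6 and 78.9 in vehicle tumours. Alpelisib 1 was the only tumour without nintedanib among the exposed ones, and the change was -1.91 ± 0.30 (limma adjusted p = 0.00246). Spred3, a related inhibitor, ran from 13.5 to 29.6 in exposed tumours, against 33.0 to 49.5 in unexposed tumours, without overlap (-0.90 ± 0.17, limma adjusted p = 0.0127). These were the only 2 of 19 tested members called, where 0.676% of all mouse genes were called lower. Of the 19, 14 were negative, with a median of -0.22. Ier3, an immediate early gene, had the opposite sign (0.93 ± 0.26, limma adjusted p = 0.111). The Spred3 call was lost without the 3 responders and without the 4 libraries rich in Rn45s and Lars2.

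Pericyte and mural genes had no common direction: of 21 tested, 8 were positive and 13 negative, with a median of -0.28. In each direction 1 was called, where 0.676% of all mouse genes were called lower and 0.177% higher. Mcam, CD146 of endothelial cells and pericytes and also a member of the tip cell list, ran from 192 to 550.7 in exposed tumours, against 423.3 to 1061 in unexposed tumours (-1.2 ± 0.21, limma adjusted p = 0.00639). Ndufa4l2, a mitochondrial protein induced by hypoxia, was called higher and is given below. Kcnj8, a potassium channel subunit of pericytes, had a change of -0.87 ± 0.26 (limma adjusted p = 0.136), which passed without alpelisib 1 (0.0167). Of 15 tested neuropilins, angiopoietins, VEGF ligands and their partners 7 were positive, and the 3 called lower were Angpt2, Tie1 and Sema3f. Sema3f, a semaphorin that guides vessels and axons, fell by 0.93 ± 0.16 on the log2 scale (limma adjusted p = 0.00627), with exposed tumours at 85.9 to 184.5 and unexposed tumours at 210.1 to 319.8.

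**Figure D2:**
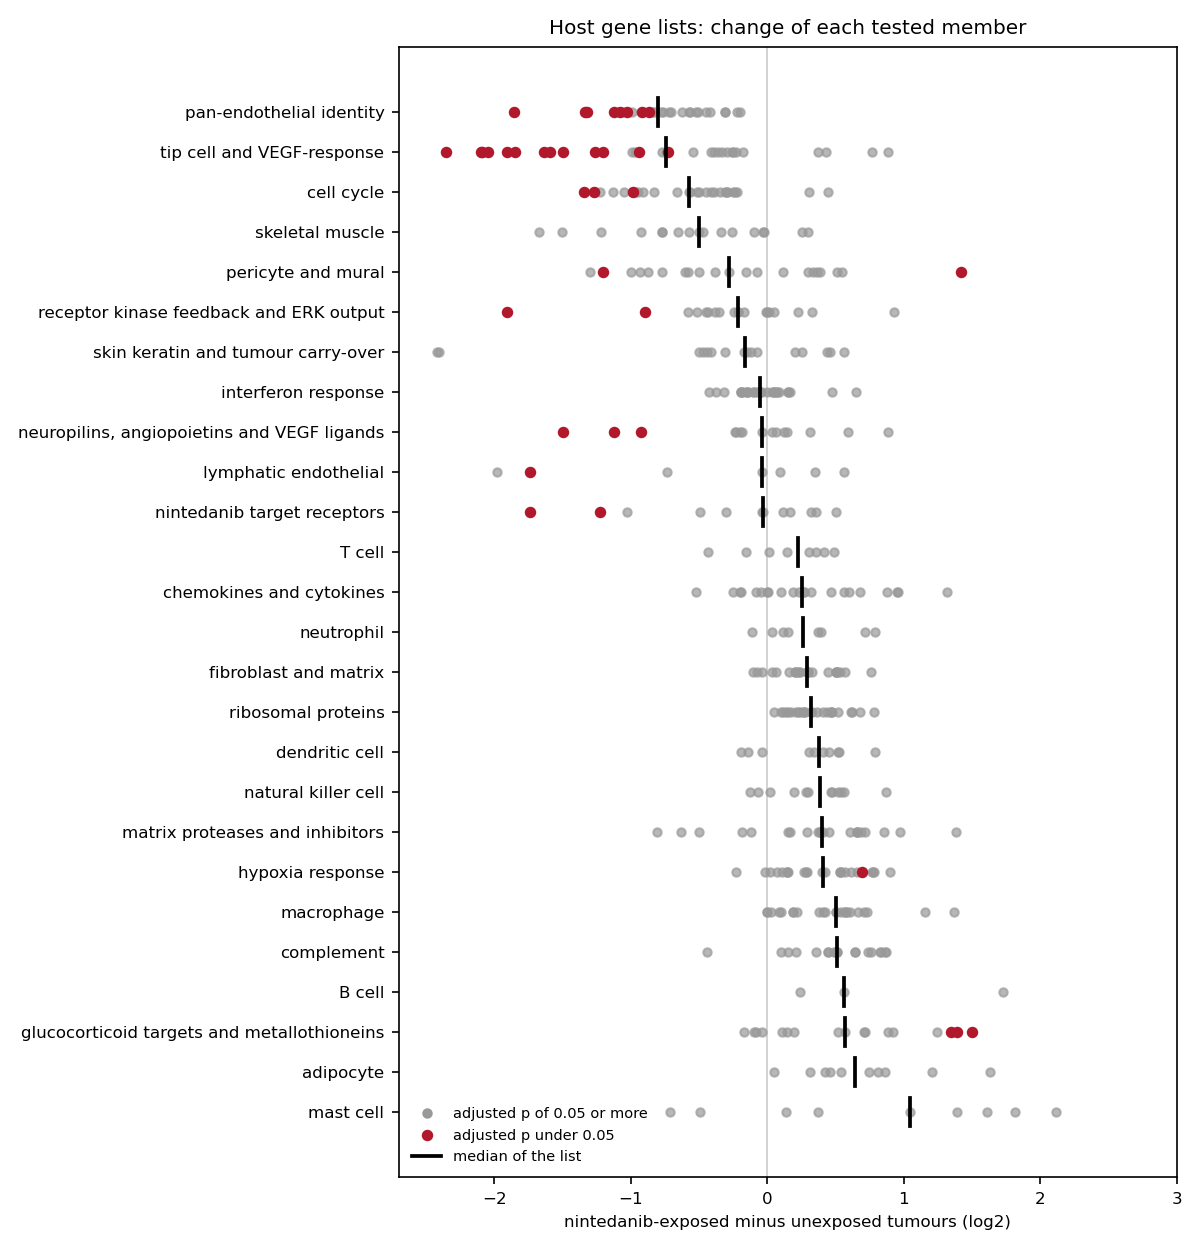
Log2 change, nintedanib-exposed minus unexposed tumours, of each tested member of 26 host gene lists; each dot is a gene, red where it passed an adjusted p of 0.05, and the black bar is the list's median. The medians of the pan-endothelial (-0.80) and tip cell (-0.74) lists are the most negative, and red dots among the higher genes lie in the glucocorticoid and metallothionein, pericyte and hypoxia lists.

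The 2 x 2 design asks whether nintedanib did the same with alpelisib as without it. The difference between the combination-minus-alpelisib change and the nintedanib-minus-vehicle change passed an adjusted p of 0.05 in 0 mouse and 0 human genes (limma). At an unadjusted p under 0.05 there were 617 mouse genes (5.22%) and 1070 human genes (7.36%). The edgeR and limma-voom tests also gave 0 in both species, and DESeq2 gave 0 human genes and 1 mouse gene, Zfp503, a transcriptional regulator named here after its values were seen. The median change of the 80 lower genes was -1.13 between combination and alpelisib tumours and -1.2 between nintedanib and vehicle tumours, and of the 21 higher genes 0.89 and 1.0. Groups did not overlap on either side in 34 of the 80 lower genes, against 0.321% of all mouse genes, and in 6 of the 21 higher genes, against 0.093%. The fit that chose these genes used both sides, so neither this nor their shared sign is a separate result.

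Single genes differed more between the 2 sides than these medians did, without passing the test of the difference. Kcnj2 changed by -0.91 ± 0.45 between combination and alpelisib tumours and by -2.54 ± 0.43 between nintedanib and vehicle tumours (difference unadjusted p = 0.0169, limma adjusted p = 0.814). Clca5 changed by -1.81 ± 0.41 and by -3.01 ± 0.39 in the same order (limma adjusted p = 0.814). Nes changed by -1.29 ± 0.41 and by -2.47 ± 0.39 (limma adjusted p = 0.814). Apln (-2.13 ± 0.41 and -2.05 ± 0.39) and Pecam1 (-0.90 ± 0.26 and -0.93 ± 0.25) had nearly the same values on both sides.

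**Figure D3:**
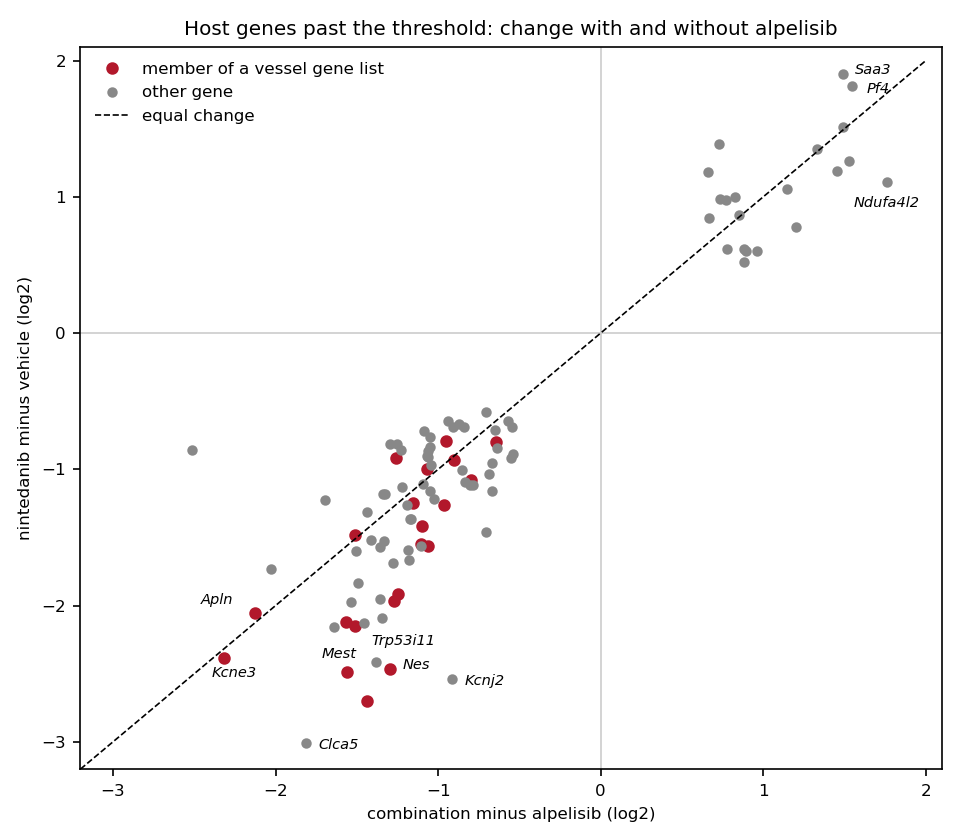
Log2 change of the 101 host genes past the threshold: combination minus alpelisib tumours (horizontal) and nintedanib minus vehicle tumours (vertical), with members of the pan-endothelial and tip cell lists in red and other genes in grey. The dashed line marks equal change, and Clca5, Nes and Kcnj2 lie below it, with larger decreases without alpelisib.

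Most cell cycle genes had negative changes in mouse reads, and human reads of the same genes were far more numerous. Of 30 tested mouse members 28 had a negative change, with a median of -0.57. Among them 3 were called lower, where 0.676% of all mouse genes were. Kif20a, a mitotic kinesin, ran from 10.1 to 19.8 in exposed tumours, against 20.2 to 53.8 in unexposed tumours, without overlap (-1.35 ± 0.19, limma adjusted p = 0.000849). Ccnb1, cyclin B1, changed by -1.27 ± 0.23 (limma adjusted p = 0.00699), and Ccna2, cyclin A2, by -0.98 ± 0.20 (0.0198). The Ccna2 call was lost without alpelisib 2 or vehicle 4, with limma adjusted p from 0.0518 to 0.0613. The calls of mouse Ccna2 and mouse Ccnb1 were also lost without the 3 responders (limma adjusted p = 0.164 and 0.0725 in that order) and without the 4 libraries rich in Rn45s and Lars2 (0.226 and 0.0661). All 30 had more human than mouse reads, with a median of 6.73 mouse reads per 100 human reads, and conserved sequence can align to either genome. The human genes had a median change of -0.32, and 27 of 30 were more negative in mouse than in human reads. The part of human reads in the mouse values was not tested.

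The called host genes with the largest increases were Saa3, Pf4, Mt2, Ndufa4l2 and Mt1. Mt1, a metal-binding protein that glucocorticoids and zinc induce, had 399.5, 443.5, 680.3 and 1245 normalized counts in combination tumours, against 168.1, 169.6, 350.2 and 214.5 in alpelisib tumours. It had 532.4, 395.8, 143.5, 467.7 and 381 in nintedanib tumours, against 216.4, 180.3, 80.4 and 145.9 in vehicle tumours. Combination tumours were all above alpelisib tumours, and of the nintedanib tumours responder 3, at 143.5, fell among the vehicle tumours. The change was 1.39 ± 0.28 (limma adjusted p = 0.0173), lost without alpelisib 2 (0.0539).

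Mt2 changed by 1.5 ± 0.35 (limma adjusted p = 0.0463), but its call was lost in 24 of 31 alternatives, 14 of them the omission of a single library. Sult1a1, a sulfotransferase, ran from 23.4 to 67.7 in exposed tumours, against 7.78 to 24.8 in unexposed tumours (1.34 ± 0.27, limma adjusted p = 0.017). Mt1, Mt2 and Sult1a1 were the 3 called members of the 17 tested glucocorticoid targets and metallothioneins, where 0.177% of all mouse genes were called higher. Of the 17, 13 were positive, with a median of 0.57. The median was 0.557 between combination and alpelisib tumours and 0.22 between nintedanib and vehicle tumours, a difference that was not tested. Without the 2 non-responders none of the 17 passed, nor without the 4 libraries rich in Rn45s and Lars2. Of 16 members with a human gene of the same name, 15 had more human reads. The human genes MT2A (1.07 ± 0.28), MT1X (0.98 ± 0.29) and FKBP5 (0.88 ± 0.25), looked up after the mouse values were seen, had the same sign and did not pass (limma adjusted p from 0.612 to 0.661). SULT1A1, the human counterpart of Sult1a1, had the opposite sign (-0.27 ± 0.25, limma adjusted p = 0.906). The part of human reads in the mouse values was not tested. Metallothionein genes are near-identical copies, so reads may be split between them in either species.

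Saa3, an acute-phase apolipoprotein, had 7948, 11159, 13651 and 15518 normalized counts in combination tumours, against 1538, 3900, 7968 and 6336 in alpelisib tumours. In nintedanib tumours it had 18810, 12728, 2978, 5204 and 10012, against 2138, 1066, 2002 and 5045 in vehicle tumours. The groups overlapped on both sides of the design, and the change was 1.71 ± 0.38 (limma adjusted p = 0.0342). Pf4, platelet factor 4, a chemokine of platelets and some macrophages, changed by 1.69 ± 0.39 (limma adjusted p = 0.0423). The call was lost in 15 of 31 alternatives for Saa3 and 19 of 31 for Pf4, with 9 and 12 single libraries among them and adjusted p-values up to 0.144 and 0.157.

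Other called genes had firmer or weaker calls. Trpv4, a calcium-permeable channel, ran from 45.8 to 87.3 in exposed tumours, against 15.6 to 48.6 in unexposed tumours (1.10 ± 0.20, limma adjusted p = 0.00768). Gstm1, a glutathione transferase, ran from 54.5 to 115.8 in exposed tumours, against 24.9 to 63.9 in unexposed tumours (0.98 ± 0.19, limma adjusted p = 0.0117). Both calls held without any single library. Nbl1, a BMP antagonist, changed by 0.86 ± 0.18 (limma adjusted p = 0.0262), a call lost without combination 1, combination 4, responder 1, alpelisib 2 or vehicle 4 (0.0534 to 0.0792).

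Crabp1, a retinoic acid binding protein, averaged 1292 ± 252.6 in combination and 779 ± 151.6 in alpelisib tumours, and 851.3 ± 623.1 in nintedanib and 277.6 ± 38.0 in vehicle tumours. Its nintedanib change was 1.08 ± 0.24 (limma adjusted p = 0.033), with responder 1 at 1939 far above the other 4 nintedanib tumours. Its call was lost without any of 9 single libraries. A4galt, which makes the glycolipid Gb3 (0.94 ± 0.21), and the leukocyte genes Cd37, a tetraspanin (0.88 ± 0.20), and Alox5ap, needed for leukotriene synthesis (0.87 ± 0.20), also passed (limma adjusted p from 0.033 to 0.0448). They lost their calls without 9, 13 and 15 of the 17 single libraries in that order.

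Fmo1, a flavin monooxygenase, and Syn1, the synaptic vesicle protein synapsin 1, were the only 2 tested mouse genes (0.0169%) with all 9 exposed tumours above all 8 unexposed ones, and are named for that after their values were seen. Fmo1 ran from 28.5 to 105.7 in exposed tumours, against 10.9 to 26.9 in unexposed tumours (1.32 ± 0.24, limma adjusted p = 0.00864). The Fmo1 call was lost without the 3 responders and without the 4 libraries rich in Rn45s and Lars2 (limma adjusted p up to 0.186). Syn1 ran from 9.90 to 20.7, against 4.72 to 9.19 in unexposed tumours, and did not pass (1.02 ± 0.25, 0.0586). It passed without responder 3, alpelisib 1 or vehicle 3 (0.0435 to 0.0491). On the lower side, 19 of the 20 non-overlapping genes passed, and the one that did not was Blmh, bleomycin hydrolase (-0.35 ± 0.13, limma adjusted p = 0.36), also named after its values were seen.

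**Figure D4:**
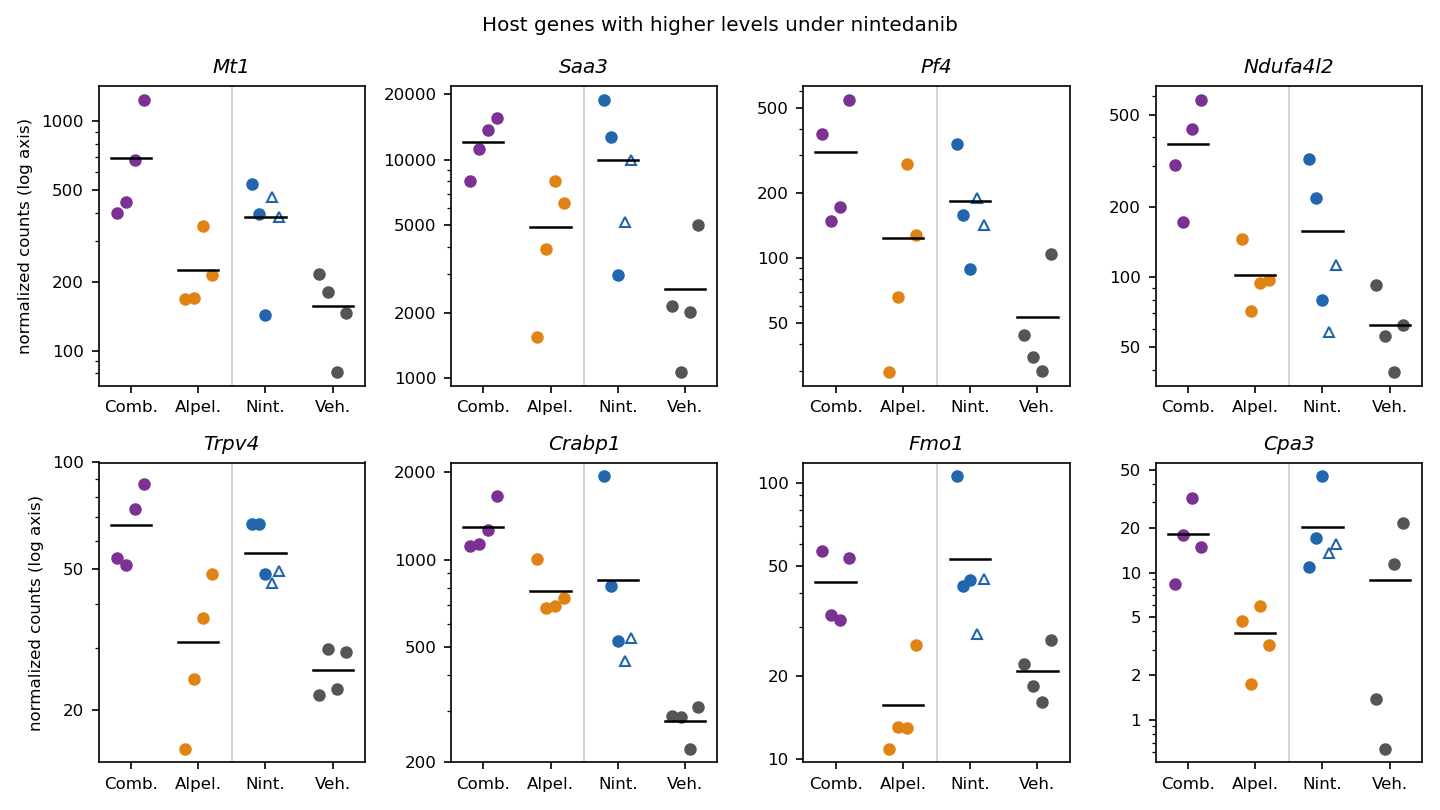
Normalized counts (log axis) of 8 host genes in each tumour, with columns and symbols as in the plot of host vessel genes. Combination tumours lie above alpelisib tumours for Mt1, Ndufa4l2, Trpv4, Crabp1, Fmo1 and Cpa3, while the nintedanib and vehicle columns overlap for Mt1, Saa3, Pf4, Ndufa4l2 and Cpa3; Cpa3 did not pass the test.

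Hypoxia-response genes leaned higher in mouse reads: 22 of 24 tested were positive, against 50.2% of all tested mouse genes, with a median of 0.41. Where 0.177% of all mouse genes were called higher, 1 of the 24 was. That gene, P4ha2, a collagen prolyl hydroxylase, ran from 160.8 to 342.8 in exposed tumours, against 102.2 to 185.3 in unexposed tumours (0.69 ± 0.15, limma adjusted p = 0.033). Its call was lost without any of 10 single libraries. The list's median was 0.488 between combination and alpelisib tumours and 0.159 between nintedanib and vehicle tumours, a difference that was not tested. The human hypoxia list had 15 of 24 positive, with a median of 0.09. Ndufa4l2, which the pericyte list holds and the hypoxia list does not, had 302.9, 172, 434.2 and 579.6 normalized counts in combination tumours, against 146.3, 71.7, 94.3 and 97.1 in alpelisib tumours. It had 321.1, 218.6, 79.5, 58.2 and 112.5 in nintedanib tumours, against 92.4, 55.9, 39.0 and 62.5 in vehicle tumours. The lowest were responder 3 and non-responder 1, inside the vehicle range, and the change was 1.42 ± 0.32 (limma adjusted p = 0.0343), lost without any of 11 single libraries. All 23 hypoxia list members with a human gene of the same name had more human reads, at a median of 13.1 mouse reads per 100 human reads. Ndufa4l2 had 3.51 per 100, and human NDUFA4L2 changed by 0.69 ± 0.22 (limma adjusted p = 0.78). The part of human reads in the mouse values was not tested.

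No myeloid list held a called gene, but most members leaned higher. Of 23 macrophage genes tested 22 were positive, with a median of 0.50 and 8 higher at an unadjusted p under 0.05, where 5.3% of all mouse genes were. The list's summed normalized counts ran from 20120 to 44220 in exposed tumours, against 19960 to 31000 in unexposed tumours. Cd68, a lysosomal protein of macrophages, averaged 816.7 ± 95.3 in combination tumours and 504.1 ± 51.8 in alpelisib tumours. It averaged 683.1 ± 191.6 in nintedanib tumours and 492.5 ± 112.1 in vehicle tumours, and its change was 0.57 ± 0.16 (limma adjusted p = 0.1; 0.0441 without responder 3). Folr2, a folate receptor of resident macrophages, had a change of 1.16 ± 0.38 (limma adjusted p = 0.217). Ccl6, a myeloid chemokine, had 1.32 ± 0.41 (0.188). Without vehicle 3 the macrophage median was 0.33, and without the 4 libraries rich in Rn45s and Lars2 it was 0.32.

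Complement genes, made by macrophages and fibroblasts in many tissues, leaned the same way. Of 20 tested 19 were positive, with a median of 0.51 and none called. At an unadjusted p under 0.05, 9 were higher, where 5.3% of all mouse genes were. Serping1, the C1 inhibitor, ran from 1586 to 4784 (median 3056) in exposed tumours, against 975.3 to 2656 (median 1533) in unexposed tumours (0.87 ± 0.26, limma adjusted p = 0.156). Cfp, properdin, which stabilizes the alternative pathway convertase, had 0.83 ± 0.24 (limma adjusted p = 0.124).

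Mast cell genes split. The granule protease genes Cpa3, carboxypeptidase A3 (1.81 ± 0.48, limma adjusted p = 0.0895), and Tpsb2, a tryptase (2.12 ± 0.57, 0.099), had positive changes that did not pass. Cpa3 ran from 8.36 to 45.2 (median 15.7) in exposed tumours, against 0.635 to 21.9 (median 3.95) in unexposed tumours. Vehicle 3 and vehicle 4, at 11.5 and 21.9, were the unexposed tumours inside the exposed range, and without vehicle 4 the gene passed (limma adjusted p = 0.0267). Kit, the receptor for stem cell factor on mast and other cells, had the opposite sign (-0.71 ± 0.20, limma adjusted p = 0.122; 0.0413 without vehicle 2). Over the 9 tested members 7 were positive, with a median of 1.05, and 1.7 without the 4 libraries rich in Rn45s and Lars2. Tryptase genes are close copies, and reads may be split between them.

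Of the other host lists, fibroblast and matrix genes had a median of 0.29 (21 of 24 positive), matrix proteases and inhibitors 0.40 (17 of 22) and interferon-response genes -0.055 (12 of 28), with none called. Without the 3 responders these medians were 0.107, 0.216 and -0.092 in that order, and the fibroblast median was 0.149 with the Rn45s and Lars2 share as a covariate. Ribosomal protein genes had a median of 0.32 with 25 of 25 positive, and their human genes had 0.45, also 25 of 25. Between combination and alpelisib tumours the medians were 0.078 in mouse and 0.02 in human reads, and between nintedanib and vehicle tumours 0.556 and 0.699, a difference that was not tested for the list. Without vehicle 3 the medians were 0.16 in mouse and 0.196 in human reads, with 24 of 25 positive in each. Without the 4 libraries rich in Rn45s and Lars2 they were 0.21 and 0.255, and the mouse median was 0.203 without the 2 non-responders. Skeletal muscle genes had a median of -0.50 (2 of 17 positive) that turned to 0.54 without the 3 responders and 0.09 with the Rn45s and Lars2 share as a covariate. Their summed counts ran from 903.4 to 45190 in exposed tumours, against 932.8 to 17950 in unexposed tumours. Adipocyte genes had a median of 0.643 (10 of 10 positive), with none called. Their median was -0.126 without the 2 non-responders, 0.1 without vehicle 3 and 1.566 without the 3 responders. Natural killer, T cell and B cell lists had 12, 8 and 3 tested members in that order and none called.

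In tumour cells nintedanib gave no call. Of 14533 human genes 0 passed an adjusted p of 0.05 by limma (0.0%) and 0 by edgeR, while 801 (5.51%) had an unadjusted p under 0.05, 449 higher (3.09%) and 352 lower (2.42%). Limma-voom gave 1 and DESeq2 gave 25, 20 of them higher.

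CCR7, a chemokine receptor, came nearest. It had 51.0, 86.8, 66.5 and 35.3 normalized counts in combination tumours, against 116.4, 165.1, 129 and 130.5 in alpelisib tumours. It had 48.4, 75.3, 42.3, 66.0 and 44.4 in nintedanib tumours, against 106.5, 109.5, 102.3 and 156.3 in vehicle tumours. In 4 human genes each way (0.0275% lower, 0.0275% higher) the groups did not overlap on either side of the design. CCR7 was the 1 human gene of 14533 (0.00688%) whose 9 exposed tumours all lay below all 8 unexposed ones, with a change of -1.16 ± 0.18 (limma adjusted p = 0.0556). It passed without combination 2 or responder 2 (0.0249 and 0.0311), and in 4 other alternatives. Mouse Ccr7 had 85.1 reads per 100 human reads and a change of the other sign (0.31 ± 0.33, limma adjusted p = 0.813).

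TAGLN, the actin-binding protein transgelin, ran from 359.5 to 930.7 (median 639.8) in exposed tumours, against 102.3 to 548.9 (median 302.8) in unexposed tumours (1.33 ± 0.23, limma adjusted p = 0.0747). Mouse Tagln had 439.5 reads per 100 human reads and a change of 0.51 ± 0.27 (limma adjusted p = 0.589), and the part of mouse reads in the human value was not tested. After it on the higher side came FHL3, an actin-associated LIM protein (0.86 ± 0.18), IFITM2, an interferon-induced membrane protein (0.86 ± 0.18), IGFL1, a secreted protein of the IGF-like family (1.05 ± 0.24), and CDA, cytidine deaminase (1.40 ± 0.33). On the lower side came CEL, a bile salt-dependent lipase (-1.37 ± 0.28), IQGAP3, a scaffold protein of dividing cells (-0.54 ± 0.13), PIGR, the polymeric immunoglobulin receptor (-1.40 ± 0.34), and FAM83D, a mitotic spindle protein (-0.54 ± 0.14). Their limma adjusted p-values ran from 0.377 to 0.554, and PIGR had a mean of 332.6 ± 328.8 in nintedanib tumours, against 1052 ± 473.4 in vehicle tumours, with non-responder 1 at 913.5.

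Human gene lists leaned without a called gene, where 47.6% of all tested human genes had a positive change. Cell cycle genes had 28 of 30 negative, a median of -0.32 and 9 lower at an unadjusted p under 0.05, where 2.42% of all human genes were. AURKA, a mitotic kinase, averaged 611 ± 109.6 in combination tumours and 971.6 ± 259 in alpelisib tumours. It averaged 884.3 ± 144.4 in nintedanib tumours and 1187 ± 205 in vehicle tumours, for a change of -0.53 ± 0.14 (limma adjusted p = 0.651). BUB1B, of the spindle checkpoint (-0.58 ± 0.18), and KIF20A (-0.45 ± 0.15) had the same sign (limma adjusted p = 0.739 and 0.809).

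Squamous differentiation genes, expressed in cornifying cell layers, had 25 of 28 positive with a median of 0.63, against 47.6% positive among all human genes. The 2 sides of the design were unlike: the median was 0.003 between combination and alpelisib tumours and 1.2 between nintedanib and vehicle tumours. Without the 3 responders the overall median was 0.23. KRTDAP, a keratinocyte differentiation gene, averaged 12763 ± 4033 in combination tumours and 7545 ± 1989 in alpelisib tumours. It averaged 9323 ± 6282 in nintedanib tumours and 1748 ± 1085 in vehicle tumours (1.48 ± 0.41, limma adjusted p = 0.651). KRTDAP changed by 0.74 ± 0.56 between combination and alpelisib tumours and by 2.14 ± 0.53 between nintedanib and vehicle tumours. Both lay above the list's medians. The test of the difference between the 2 sides gave KRTDAP an unadjusted p of 0.0839 (limma adjusted p = 0.629). Basal urothelial genes had 19 of 19 positive with a median of 0.41. Without the 3 responders 15 of 19 were positive with a median of 0.232, and without the 4 libraries rich in Rn45s and Lars2 the median was 0.646. Among them were the keratins KRT17 (0.77 ± 0.25, limma adjusted p = 0.751) and KRT16 (0.90 ± 0.32, 0.816). Keratin genes have close copies, and reads may be split between them.

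**Figure D5:**
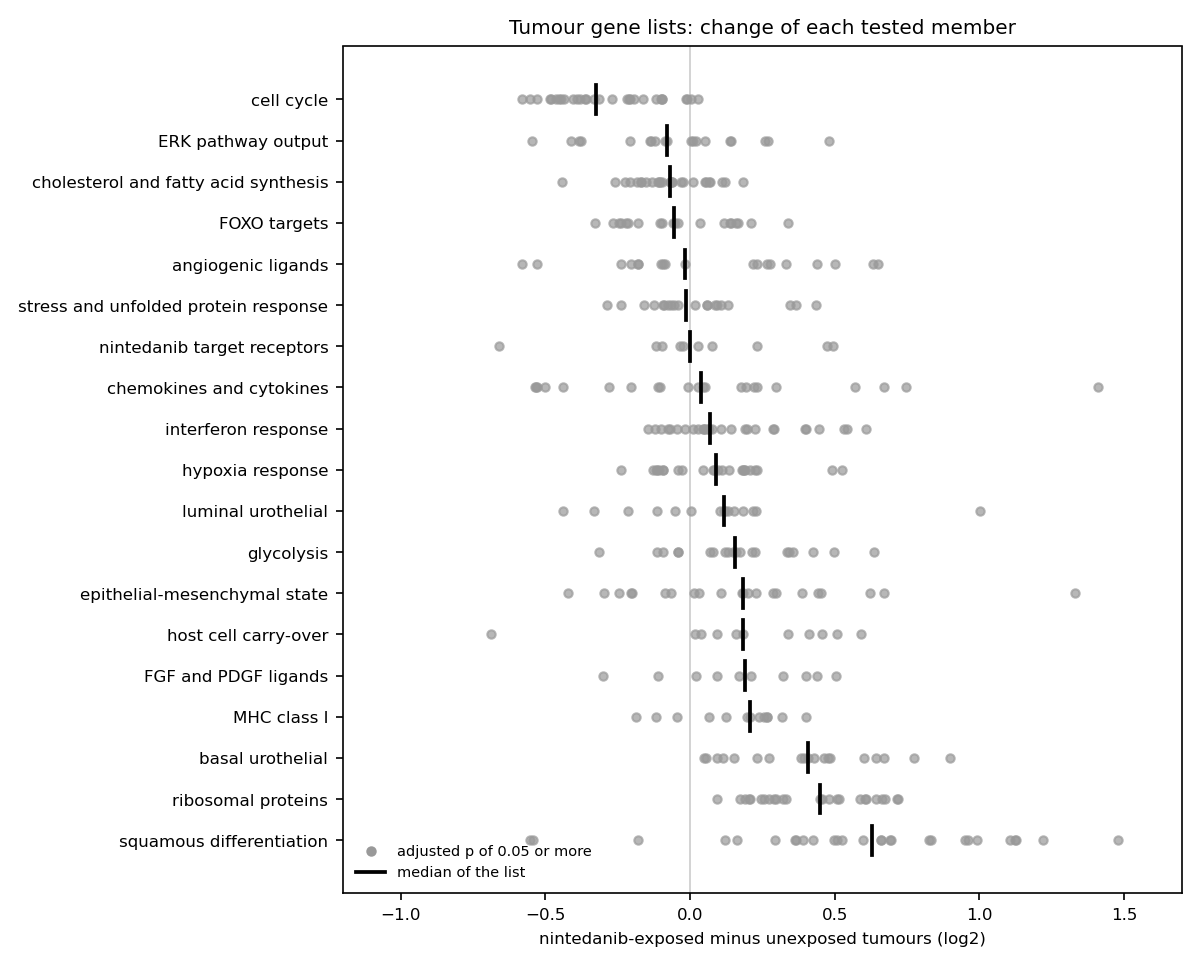
Log2 change, nintedanib-exposed minus unexposed tumours, of each tested member of 19 human gene lists; each dot is a gene, none of which passed an adjusted p of 0.05, and the black bar is the list's median. Medians run from -0.32 for cell cycle genes to 0.63 for squamous differentiation genes.

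The tumour cells' own receptors and ligands showed no call. FGFR3, an FGF receptor often altered in bladder cancer, ran from 3872 to 7902 (median 5351) in exposed tumours, against 3701 to 7735 (median 5691) in unexposed tumours (-0.10 ± 0.18, limma adjusted p = 0.978). FGFR1 (0.03 ± 0.16) and FGFR2 (-0.04 ± 0.19) had changes near 0 whose sign turned in several alternatives. FLT4 in human reads had -0.66 ± 0.26 (limma adjusted p = 0.869). DUSP4, an ERK phosphatase switched on by ERK, had -0.41 ± 0.15 (limma adjusted p = 0.869). AXL, a receptor kinase, had 0.62 ± 0.23 (0.849), the lymphangiogenic ligand VEGFC 0.65 ± 0.32 (0.869) and PDGFA 0.40 ± 0.19 (0.869).

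Apelin had opposite signs in the 2 species. Human APLN ran from 103.9 to 352.2 (median 233.4) in exposed tumours, against 56.7 to 320 (median 150.8) in unexposed tumours (0.63 ± 0.23, limma adjusted p = 0.865), whereas mouse Apln fell by 2.09 on the log2 scale. Among the 80 lower host genes 50 had a tested human gene of the same name: 33 of these human genes were negative and 17 positive, with a median of -0.11. Among the 21 higher host genes 12 had one, 9 positive and 3 negative, with a median of 0.22. None of these human genes passed.

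How much of the RNA was of host origin was compared as the mouse share of recovered reads without Rn45s and Lars2. It was 15.1% ± 2.60 in combination tumours and 14.2% ± 1.03 in alpelisib tumours (SD, n = 4 each), and 18.2% ± 2.75 in nintedanib tumours (n = 5) and 16.98% ± 2.25 in vehicle tumours (n = 4). The mean of the 2 differences was 1.06 percentage points (exact two-sided permutation within alpelisib strata, 8820 orders, p = 0.327). Without the 4 libraries rich in Rn45s and Lars2 it was -0.136 points.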

How the data were processed

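Human and mouse reads of 17 tumours were analysed from 2 deposited tables of normalized counts, a signal in which the authors divided reads by a size factor per library. Alignment and counting used Bowtie, TopHat and DESeq2 with hg19 and mm10, per the submitters' processing notes; versions, the counting step, strand and how reads matching both species were handled are not given in the sources used here. Libraries were polyA-selected, 75-bp paired-end TruSeq libraries, per the labels' protocols. Whole reads were recovered by dividing each deposited value by its library's smallest step. For mouse reads of combination 2 that step is too close to 1 to check, so edgeR, limma-voom and DESeq2 on mouse reads left that library out.

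Genes with a mean of at least 10 over 17 libraries were tested in each species with limma 3.58.1 (R 4.3.3, trend) on log2(value + 1), with nintedanib and alpelisib as factors and Benjamini-Hochberg adjustment at 0.05 over all tested genes of a species. Fold changes on this scale understate changes of low genes. A nintedanib by alpelisib term tested the difference between both sides of the design. Alternatives used edgeR 4.0.16, DESeq2 1.42.0, limma-voom, other scalings, filters and pseudocounts, a replicate block, and fits without some libraries. Named genes were those with the largest called changes (up to 12 a direction, mean of at least 50 in exposed or unexposed tumours), up to 3 of smallest p per list, and the target receptors; the 5 of smallest p were used where fewer than 5 passed. Dll4, Cdh5, Pecam1, Fmo1, Blmh, Syn1, FKBP5, MT2A and MT1X were added after their values were seen. The members and lists were chosen with earlier results of these data known. No 2 libraries of a treatment agreed within sampling noise.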

Additional observations from a re-analysis of the deposited data

Results flagged for a closer look

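In treatments of 4 or 5 tumours, 36 of 352 sets of values held 1 tumour far from the others by Dixon's test at the 95% level. Chance flags about 5% of independent, normally distributed sets. Nearly all of these sets were normalized counts of selected genes from the same 17 libraries, so that rate is no measure of chance here. Causes were not tested.

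Vehicle 3 was far above the other vehicle tumours in mouse Flt1 (502.9, others 134.6 to 183.3), Pdgfrb (845.1) and Mmrn2 (342.2), and below them in Cd68 (326.1, others 533.5 to 570.2). It had the largest share of mouse reads on Rn45s and Lars2, 72.9%. Vehicle 4 was high in mouse Sult1a1 (24.6), Ccl6 (1190) and Cfp (387.6), in human CCR7 (156.3), CDA (24.1) and KRTDAP (3368), and in the mouse share of reads (20.3%, others 15.6% to 16.3%). Vehicle 1 was high in mouse Spred3 (48.2) and Kcnj8 (142).

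Alpelisib 1 was low in mouse Mmrn2 (80.9, others 189.9 to 201.5) and high in mouse Clca5 (46.7), Crabp1 (1004) and Blmh (448.2) and in human IFITM2 (1363). Alpelisib 2 was low in human MT2A (4544), and alpelisib 4 was high in mouse Fmo1 (25.9).

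Responder 1 was high in mouse Crabp1 (1939, others 447.9 to 809.5), Gstm1 (115.8) and Fmo1 (105.7) and in human MT1X (10108). Responder 3 was high in mouse Cpa3 (45.2, others 10.8 to 17.2). Non-responder 1 was high in human PIGR (913.5), and non-responder 2 was low in mouse Spry4 (8.47) and high in mouse Ccna2 (77.4).

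Combination 1 was high in mouse Pdgfrb (989.4) and human FGFR1 (774.1). Combination 2 was high in mouse Nes (136.8) and low in human TAGLN (578.9) and FKBP5 (295.1). Combination 3 was low in human IQGAP3 (308.2), and combination 4 was low in mouse Cdh5 (128.4) and human CDA (58.8).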

How the results depend on the processing

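Over 87 named genes, 2404 of 2681 values under alternatives kept their direction and side of the threshold, 223 lost the call, 39 gained it and 15 reversed. The number of mouse genes past the threshold, 101, became 66 with no filter, 61 with a mean of at least 50, 242 with DESeq2, 36 without the responders and 12 without the 4 libraries rich in Rn45s and Lars2; leaving out 1 library gave 54 to 136. The human number, 0, became 1 with a pseudocount of 5, 1 with limma-voom, 25 with DESeq2 and 5 with the Rn45s and Lars2 share as a covariate; leaving out 1 library gave 0 to 1, the gene being CCR7 without combination 2 or responder 2. With the replicate block it was 1 human gene (TAGLN) and 78 mouse genes. Pairs with the same replicate number deviated together by a correlation over 0.1 in 7 of 27 human and 5 of 27 mouse cases. Pairs with different numbers did so in 32 of 81 and 28 of 81 in that order, so the numbers gave no sign of pairing the samples. The difference between both sides of the design gave 1 mouse gene with DESeq2. Reversed values were -0.136 points for the mouse share of recovered reads without Rn45s and Lars2 when the 4 libraries were left out (0.607 to 1.62 leaving out 1 library), -0.16 for mouse Pdgfrb without the responders, -0.0146 for human FGFR1 with the replicate block, -0.0214 without the responders and -0.15 without the 4 libraries, and 0.0394 and 0.021 for human FGFR2 without the responders and with the covariate. Leaving out 1 library gave human FGFR1 -0.0478 to 0.0859 and human FGFR2 -0.152 to 0.0287. The causes were not tested. Host genes with few mouse reads limit what the mouse table can show.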
